A study of Danio rerio with 18 samples.

Results

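The comparison described here is between whole zebrafish embryos of the young mutant and wild type embryos, at 52 hours post fertilization (hpf). The mutant carries a mutation in smarca4, listed as smarca4a in the present gene table. It uses the 6 whole embryo arrays among the 18 of the series, chosen by their labels, and all 15502 probe sets other than controls. Wild type embryos and mutants were each measured on 3 arrays. The strain given for both groups is AB, and no treatment is named. Every array held RNA from a pool of 10 embryos labelled as a separate biological replicate, so the spread between arrays is that between pools. Mutants were staged through their wild type siblings and not by their own anatomy. The other 12 arrays hold dissected retinas, with or without the pigment epithelium, and the 6 bare retina arrays (3 per genotype, same age) are used below as the eye tissue to set beside the embryo.

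Smarca4 is one of the alternative ATPase motors of the SWI/SNF (BAF) chromatin remodelling complexes, which slide or evict nucleosomes and so set which enhancers and promoters are open. Vertebrate embryos use such complexes with exchangeable subunits while progenitors of the nervous system, neural crest, heart, blood and skin turn into differentiated cells. The young mutant is best known for retinal neurons that do not complete their differentiation. A whole embryo array contains the eye, but most of its RNA comes from skin, muscle, brain, spinal cord, blood, yolk layer and gut.

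Values are log2 signals of single probe sets as deposited, and a level of one gene cannot be set against that of another. A gene was represented by its brightest probe set. Changes are mutant minus wild type on the log2 scale, ± the standard error of the limma fit over all 18 arrays, with n = 3 arrays per group. A gene was called, and is said to have risen or fallen, at a Benjamini-Hochberg adjusted p under 0.05 over all probe sets. Folds are given in the direction stated, and none is given where the lower group had a mean signal under 5.23, the 30th percentile of all probe sets, where background limits the size. Replicates of the same number deviated together in both genotypes, so a second fit, which adds that number as a block and takes in the 12 arrays of embryo and bare retina, is given where it changes a call or moves a count by more than 1.5 times. It is called the block fit below.

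smarca4a was measured first as a check of the labels. Its log2 signal was 10.39, 10.15 and 10.36 on the wild type arrays and 8.03, 7.82 and 7.77 on the mutant arrays. The 3 mutant pools lay well under every wild type pool, and the fall was 5.38-fold (-2.43 ± 0.16, limma adjusted p = 3.9e-09). Among 16 measured genes of the SWI/SNF complex, arid2, which encodes a subunit of the PBAF form, rose 1.66-fold (0.73 ± 0.15), and bicra, which encodes a subunit of the non-canonical form, rose 1.36-fold (0.44 ± 0.10). The remaining 13 were not called, and the block fit called 4 higher and 1 lower. Over all genes limma called 3.73% higher and 3.66% lower, and the block fit 8.98% and 8.54%. Of the 40 measured genes next to smarca4a on its chromosome, 20 on each side, 0 were called by limma, against 7.39% of all genes. Of these 40, 6 had an unadjusted p under 0.05 and the block fit called 4, against 17.5% of all genes in that fit. On that chromosome as a whole 53 of 454 genes were called (11.7%), against 7.17% on the other 24, which ranged from 4.19% to 10.6%.

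Array quality was alike in both genotypes. Within each group the correlation of arrays across probe sets lay between 0.993 and 0.994, and the median SD per probe set was 0.123. Spiked hybridization controls were brightest on replicate 1 of each genotype (10.23 and 10.14) and lower on replicates 2 and 3 (9.17 to 9.35), so they moved with the replicate number and not with genotype. Some defining markers of tissues outside the eye were bright, as the whole embryo label implies. The fast muscle myosin myhz1.3 had signals of 13.01 to 13.35 across the 6 arrays. The periderm keratin krt4 had 12.66 to 13.33 and the liver transferrin tfa 11.89 to 12.50. Not every such marker was bright, and the liver gene fabp10a was dim, as given below.

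Of 8793 named genes, 650 were called in whole embryos, which is 7.39% of them. They split evenly, with 328 higher (3.73%) and 322 lower (3.66%) in mutants, around a median change over all genes of -0.00. Counted by probe set, 1044 were called (6.73%), 526 of them higher (3.39%) and 518 lower (3.34%). The block fit called 1541 genes (17.5%), 790 higher (8.98%) and 751 lower (8.54%). Counts of the block fit in the lists below are to be read against these larger shares, and not against those of the main fit. The 3 arrays of one genotype lay wholly above or below those of the other for 1926 genes (21.9%), of which 928 were higher (10.6%) and 998 lower (11.3%) in mutants, and the statements on overlap below are to be read against these shares.

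Calls were most frequent among genes whose signal is higher outside the retina. Genes were divided by the mean of the 6 embryo arrays minus that of the 6 retina arrays, both genotypes weighted equally. Of 1140 genes at least 2-fold brighter in embryo than in retina, 229 were called (20.1%), 116 higher and 113 lower in mutants. Of 7072 genes between, 355 were called (5.02%), and of 581 genes at least 2-fold brighter in retina, 66 (11.4%), with 46 higher and 20 lower. The block fit called 33.8% of the genes brighter in embryo (203 higher and 182 lower). It called 14.2% of those between (478 and 526) and 26.2% of those brighter in retina (109 and 43). These shares are descriptions, since genes of a class are not independent of each other.

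**Figure D1:**
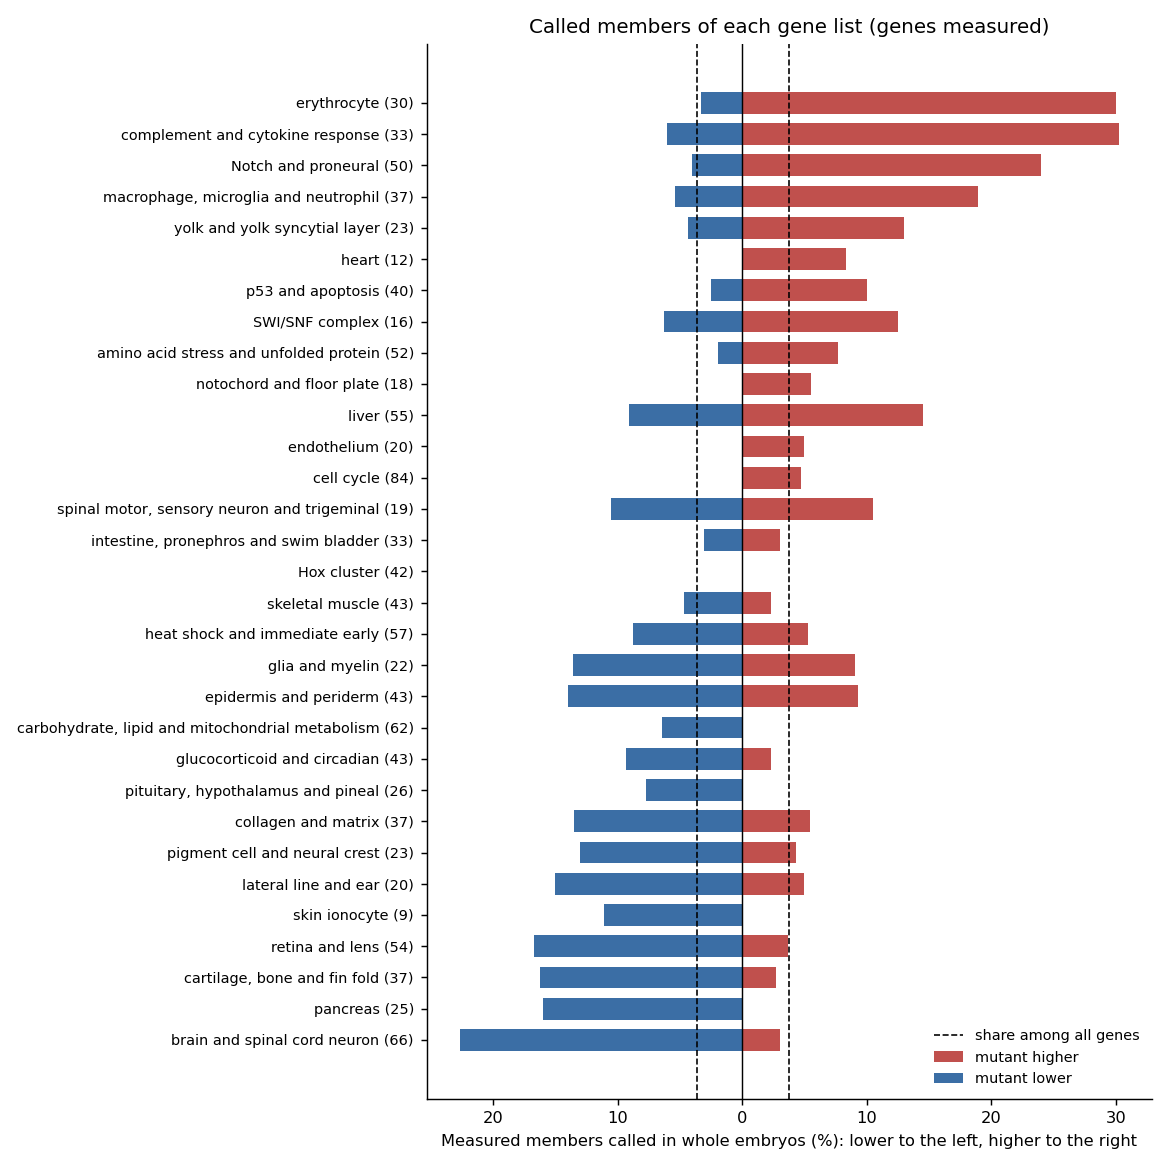
Share of the measured members of 31 gene lists called in whole embryos, with mutant lower to the left and mutant higher to the right (percent of genes measured, whose number stands in parentheses; limma adjusted p under 0.05). Dashed lines give the shares over all genes, 3.66% lower and 3.73% higher. Erythrocyte, complement and cytokine, and Notch and proneural genes reach furthest to the right, and brain and spinal cord neuron genes furthest to the left.

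The skin was represented by 43 epidermis and periderm genes, of which 4 rose and 6 fell, against background shares of 3.73% and 3.66%, with a median change of 0.06. The block fit called 7 higher and 6 lower, against its own shares of 8.98% and 8.54% of all genes. The change with the greatest size among all named genes was that of anxa1b, an annexin that marks embryonic skin. anxa1b had log2 signals of 9.66, 9.56 and 10.51 in wild type and 5.69, 6.19 and 6.72 in mutants. Every mutant pool was far below every wild type pool, a fall of 13.1-fold (-3.71 ± 0.22, adjusted p = 3.2e-09). Its paralog anxa1c, also a skin annexin, went the other way, from 10.89, 10.85 and 10.91 to 12.32, 11.97 and 12.27. That rise was 2.47-fold (1.31 ± 0.12, adjusted p = 5.3e-07), with no overlap between the groups. Another paralog, anxa1a, fell 1.71-fold (-0.77 ± 0.18, adjusted p = 0.00985). Annexins of this family bind membranes in the presence of calcium and are abundant in covering epithelia. In a bulk sample, fewer cells of a type and less RNA per cell cannot be told apart.

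Keratins are the intermediate filaments of skin. krt91 had signals of 12.28, 12.35 and 12.53 in wild type and 11.39, 11.06 and 11.56 in mutants, a fall of 2.07-fold (-1.05 ± 0.13, adjusted p = 1.5e-05) without overlap. krt17 fell 1.75-fold (-0.81 ± 0.19) and krt1-19e 1.40-fold (-0.48 ± 0.13), the latter named after its value was seen. Most keratins of the list were not called. krt4, a keratin of the outer skin layer, was 12.82, 12.66 and 13.06 in wild type and 12.86, 12.82 and 13.33 in mutants, and this difference of 0.15 ± 0.17 was not called (95% interval -0.20 to 0.50). agr2, needed for mucus-secreting cells, fell 1.47-fold (-0.56 ± 0.14). The genes that rose beside anxa1c encode parts of cell junctions: the epithelial cadherin cdh1 (0.55 ± 0.15), the desmocollin dsc2l (0.61 ± 0.16) and the envoplakin evpla (0.54 ± 0.12). cdh1 and dsc2l were chosen after their values were seen, and other junction genes of the list, claudins among them, were not called.

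Some skin calls were lost when single arrays were left out. Such a fit has fewer arrays in a group, so a lost call does not by itself show that the gene depends on that array. Leaving out wild type replicate 2 or mutant replicates 1 or 3 left 1, 2 and 2 of the 4 rises, and leaving out wild type replicate 3 or mutant replicate 2 left 2 of the 6 falls. anxa1b, anxa1c and krt91 stayed called without each of the 6 arrays. anxa1a, krt17 and agr2 lost the call without wild type replicate 3 (adjusted p 0.072, 0.0709 and 0.0915) or mutant replicate 2 (0.0594, 0.0797 and 0.116). krt1-19e lost it without wild type replicates 1 or 3 or mutant replicate 2 (0.0591, 0.10 and 0.160). cdh1 lost it without wild type replicates 2 or 3 or mutant replicates 1 or 3 (0.0924 to 0.154), dsc2l without wild type replicate 2 or mutant replicate 1 (0.14 and 0.0948) and evpla without wild type replicate 2 or mutant replicate 3 (0.0596 and 0.0615).

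Further genes of covering epithelia were lower. caspb, an inflammatory caspase of zebrafish epithelium and leukocytes, had signals of 8.04, 8.11 and 8.85 in wild type and 6.47, 6.49 and 7.52 in mutants. It fell 2.84-fold (-1.51 ± 0.23, adjusted p = 0.00029), and a second caspb probe set fell by 1.61. pycard, the adaptor that assembles such caspases into the inflammasome speck, fell 1.60-fold (-0.68 ± 0.18), a call that was lost without wild type replicate 3 or mutant replicates 1 or 2 (adjusted p 0.133, 0.131 and 0.119). aqp3a, a water and glycerol channel of skin and of ionocytes, fell 2.17-fold (-1.12 ± 0.20, adjusted p = 0.00101). Among 9 ionocyte genes, ca2, a carbonic anhydrase of ionocytes and red cells, fell 1.96-fold (-0.97 ± 0.11, adjusted p = 1.0e-05), and the block fit called 1 more, higher. A second ca2 probe set changed by -0.37 and was not called. pycard and aqp3a were chosen after their values were seen.

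Of 37 cartilage, bone and fin fold genes 1 rose and 6 fell, against 3.73% and 3.66% of all genes, with a median of -0.05. and1, and2 and and3 encode actinodins, the proteins of the rigid fibrils (actinotrichia) that hold the larval fin fold. and2 went from 10.72, 10.77 and 10.95 in wild type to 9.05, 9.52 and 9.72 in mutants, a fall of 2.61-fold (-1.38 ± 0.14, adjusted p = 2.4e-06). and3 went from 8.82, 8.82 and 8.89 to 7.54, 7.68 and 7.85, a fall of 2.23-fold (-1.16 ± 0.11, adjusted p = 5.3e-07). and1 went from 9.97, 10.12 and 10.73 to 9.16, 9.15 and 9.44, a fall of 2.03-fold (-1.02 ± 0.14, adjusted p = 0.00011). In all 3 genes each mutant pool was below each wild type pool, and each call held without any of the 6 arrays in turn.

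Other skeletal genes were called too. sparc, a collagen-binding matrix protein, fell 1.50-fold (-0.58 ± 0.14), the cartilage matrilin matn1 fell 1.54-fold (-0.62 ± 0.16) and the cartilage factor sox9b fell 1.39-fold (-0.47 ± 0.14). runx3, a runt factor of skeleton and sensory neurons, rose 1.53-fold (0.61 ± 0.12, adjusted p = 0.0023). col10a1a, a collagen of hypertrophic cartilage and bone surfaces that is not in the list and was chosen after its value was seen, fell 2.53-fold from 8.91, 8.84 and 9.07 to 8.11, 7.48 and 7.21 (-1.34 ± 0.16, adjusted p = 1.3e-05). Without wild type replicate 3 the list held 3 falls, and without mutant replicate 1 it held 2 rises. sparc lost its call without wild type replicate 3 or mutant replicate 1 (adjusted p 0.0881 and 0.0678). matn1 lost it without wild type replicates 2 or 3 or mutant replicate 3 (0.0806 to 0.126), and sox9b lost it without any of 5 arrays (0.0588 to 0.222), all but mutant replicate 3. A further sox9b probe set was not called.

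Among 37 collagen and matrix genes 2 rose and 5 fell, against 3.73% and 3.66% of all genes. Their median was -0.02, and the block fit called 4 higher and 8 lower (8.98% and 8.54% of all genes in that fit). aebp1b, related to a secreted matrix protein that binds fibrillar collagen, had signals of 7.96, 8.13 and 7.99 in wild type and 5.34, 5.76 and 5.58 in mutants. It fell 5.52-fold (-2.46 ± 0.16, adjusted p = 3.9e-09) with wide separation of the groups. col28a2a, a collagen type XXVIII chain, went from 6.58, 6.41 and 6.54 to 3.85, 4.23 and 4.2 (-2.42 ± 0.12, adjusted p = 3.7e-10), where the mutant signal was in the range of background. dcn, the small proteoglycan decorin that coats collagen fibrils, went from 9.35, 9.51 and 9.79 to 7.90, 7.89 and 8.50, a fall of 2.74-fold (-1.46 ± 0.15, adjusted p = 2.3e-06). All 3 genes separated the genotypes completely.

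Further matrix genes were called in both directions. aspn, a proteoglycan of the same family as decorin, fell 2.98-fold (-1.57 ± 0.21, adjusted p = 7.0e-05), although a dim second probe set was not called. The collagen genes col6a3 and col5a2a fell 1.89-fold (-0.92 ± 0.13) and 1.59-fold (-0.67 ± 0.13). A chain gene of the fibrillar type I collagen, col1a2, was 11.98 ± 0.17 in wild type and 11.79 ± 0.10 in mutants (SD, n = 3). This difference of -0.19 ± 0.13 was not called (adjusted p = 0.598), and neither was that of a further type I chain gene of the list (-0.33). fn1b, a fibronectin, rose 2.66-fold from 7.06, 7.81 and 7.38 to 8.53, 8.96 and 9.0 (1.41 ± 0.17, adjusted p = 1.4e-05). timp2b, an inhibitor of metalloproteases, went from 4.71, 4.86 and 4.35, in the range of background, to 5.73, 5.47 and 5.87 (1.05 ± 0.13, adjusted p = 1.8e-05).

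**Figure D2:**
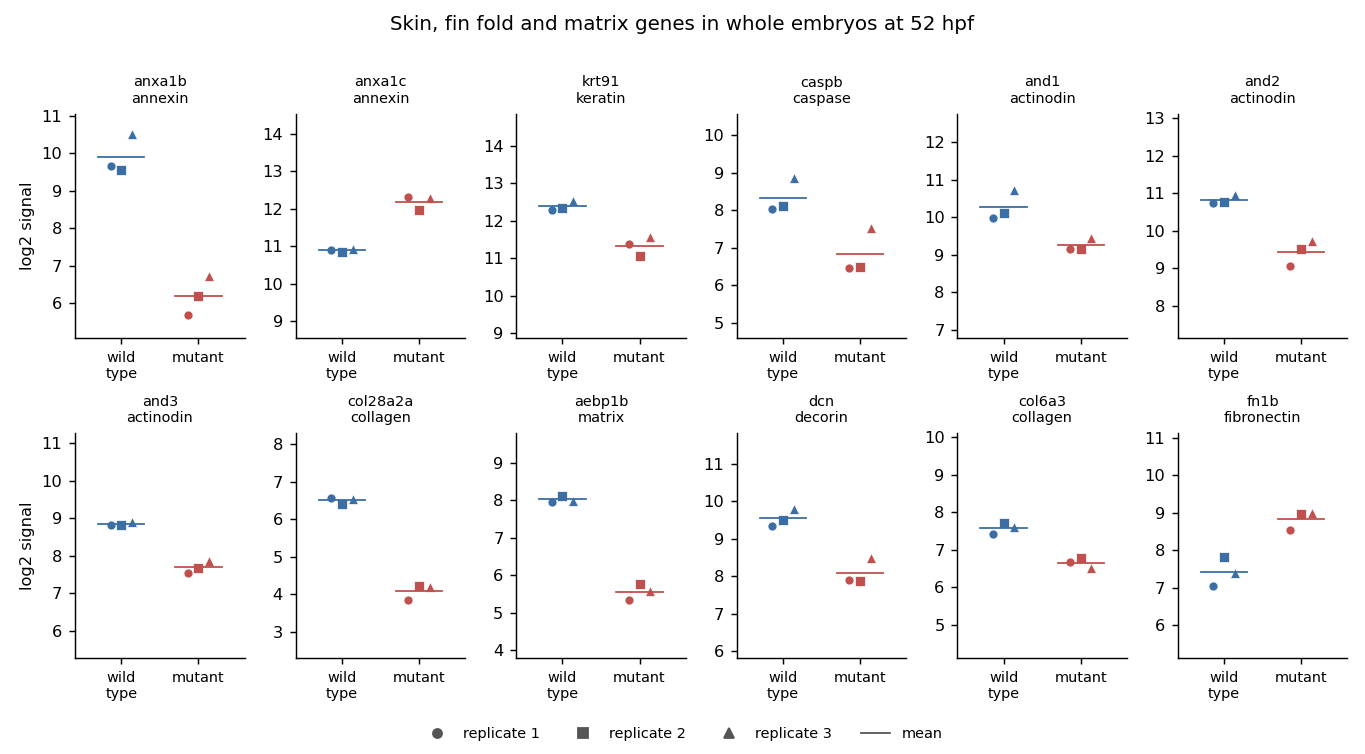
Log2 signal of 12 skin, fin fold and matrix genes on the 3 wild type (blue) and 3 mutant (red) whole embryo arrays, with the shape of a point giving the replicate number and a line the group mean. All panels cover the same length of log2 axis. anxa1b, krt91, caspb, the 3 actinodins, col28a2a, aebp1b, dcn and col6a3 are lower on every mutant array, and anxa1c and fn1b are higher on every one.

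Of 30 erythrocyte genes 9 rose and 1 fell, against 3.73% and 3.66% of all genes, and the other 20 were not called. The list had a median change of 0.25, and the mean log2 signal of the list was 7.54 to 7.65 on wild type arrays and 7.80 to 7.99 on mutant arrays. The α-globin gene hbaa1 had signals of 5.74, 5.70 and 5.95 in wild type and 7.47, 6.96 and 7.60 in mutants. It rose 2.92-fold (1.54 ± 0.19, adjusted p = 2.3e-05) with no overlap. The embryonic β-globin hbbe3 rose 1.97-fold (0.98 ± 0.23, adjusted p = 0.0106). In heme synthesis urod rose 1.56-fold (0.64 ± 0.12), and alas2, the erythroid enzyme of the committed step, rose 1.55-fold (0.64 ± 0.17). The list's other heme synthesis enzymes were not called (0.16, 0.30 and 0.16), and neither were its other globins (-0.03, -0.01 and 0.64).

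A few regulators and membrane genes of red cells also rose, while others in the list were not called. epb41b, the red cell membrane skeleton protein that ties spectrin to the membrane, went from 5.88, 6.09 and 6.34 to 7.20, 6.61 and 7.0, a rise of 1.78-fold (0.83 ± 0.15, adjusted p = 0.00101). lmo2, an adaptor of early blood transcription factors, went from 6.25, 6.17 and 6.33 to 7.08, 6.90 and 7.11, a rise of 1.72-fold (0.78 ± 0.10, adjusted p = 4.0e-05), and tal1, its partner, rose by 0.64 ± 0.13 from a wild type signal in the range of background. The gene that fell is ca2, already described, which ionocytes also express. Without mutant replicate 3 the list held 5 rises and 2 falls, and the block fit called 12 higher and 2 lower. hbbe3 lost its call without wild type replicate 2 or mutant replicate 3 (adjusted p 0.0526 and 0.0681), and alas2 without wild type replicates 1 or 2 or mutant replicates 1 or 3 (0.0666 to 0.134). alas2 and hbbe3 were chosen after their values were seen.

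Of 37 macrophage, microglia and neutrophil genes 7 rose and 2 fell, against 3.73% and 3.66% of all genes, with a median of 0.09. The other 28, which include general markers of macrophages and of leukocytes, were not called. mmp9, a gelatinase released by leukocytes and by wounded or inflamed epithelium, had signals of 6.98, 7.28 and 6.96 in wild type and 8.66, 9.02 and 9.34 in mutants. It rose 3.82-fold (1.93 ± 0.16, adjusted p = 1.4e-07), the change of greatest size upward among all named genes. ctss2.1, a lysosomal cathepsin of phagocytes, rose 1.97-fold from 6.93, 6.69 and 6.65 to 7.87, 7.36 and 7.97 (0.98 ± 0.16, adjusted p = 0.00047). ncf1, a subunit of the phagocyte oxidase, and slc7a7, an amino acid transporter of macrophages, rose by 0.54 ± 0.11 and 0.74 ± 0.14 from signals in the range of background. The collagenase mmp13a rose 1.63-fold (0.70 ± 0.18).

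Defining neutrophil genes were not called higher. mpx, the myeloperoxidase of neutrophils, was 6.39 ± 0.11 in wild type and 6.41 ± 0.04 in mutants (SD, n = 3), a difference of 0.02 ± 0.10 (95% interval -0.19 to 0.23, adjusted p = 0.981). lyz, the lysozyme of granulocytes and macrophages, went from 11.46, 11.23 and 11.17 to 10.11, 10.45 and 10.67, lower on every mutant array. Its difference of -0.87 ± 0.30 was not called by the fit over all arrays (adjusted p = 0.0919) and was called in the block fit (0.0354). The 2 falls were those of arpc1b, a subunit of the actin-nucleating Arp2/3 complex (1.88-fold, -0.91 ± 0.25, chosen after its value was seen), and lgals3bp.1, a galectin-binding protein (-1.0 ± 0.12). arpc1b lost its call without wild type replicates 1 or 3 or mutant replicate 2 (adjusted p 0.0723, 0.147 and 0.154), which left 1 fall in each case. mmp13a lost its call without wild type replicate 1 or mutant replicates 2 or 3 (0.0879, 0.148 and 0.095).

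Complement and cytokine response genes had 10 rises and 2 falls among 33, against 3.73% and 3.66% of all genes, with a median of 0.13. The mean log2 signal of the list was 5.98 to 6.1 on wild type and 6.22 to 6.30 on mutant arrays. socs3b and socs3a are feedback inhibitors switched on by JAK/STAT signalling. socs3b went from 7.29, 7.21 and 7.09 to 8.39, 8.32 and 8.28, a rise of 2.2-fold (1.13 ± 0.16, adjusted p = 0.00011) with no overlap. socs3a rose 2.03-fold (1.02 ± 0.29, adjusted p = 0.0397). irf1b, an interferon-responsive transcription factor, went from 4.42, 4.54 and 4.46, in the range of background, to 5.31, 5.83 and 5.82 (1.18 ± 0.14, adjusted p = 1.5e-05). The list's other interferon regulatory factors and its interferon-induced antiviral genes were not called, with changes of -0.04 to 0.43. b2m, the light chain of MHC class I, rose by 0.67 ± 0.11, and the chemokine cxcl12a rose 1.75-fold (0.81 ± 0.14).

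Complement genes were called in both directions, and others of the classical and terminal pathway were not called. c4b went from 6.73, 6.81 and 7.30 to 7.79, 7.99 and 8.09, a rise of 2.01-fold (1.01 ± 0.13, adjusted p = 5.3e-05). c6.2 rose 1.57-fold (0.65 ± 0.14) and c9, the pore-forming component, 1.3-fold (0.38 ± 0.11). cfi, the protease that inactivates complement, is outside the list and rose 1.90-fold (0.93 ± 0.15, adjusted p = 0.00033). cfd, the protease that starts the alternative pathway, fell from 6.25, 5.91 and 6.2 to 5.34, 5.11 and 5.06 (-0.95 ± 0.14, adjusted p = 0.00022). The other fall was of cisha, a SOCS-family inhibitor switched on by STAT5, from 7.57, 7.53 and 7.61 to 6.49, 6.50 and 6.51, which is 2.11-fold (-1.07 ± 0.10, adjusted p = 1.0e-06).

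Without wild type replicate 1 or mutant replicates 2 or 3 the list held 6 rises, and without wild type replicate 1 it held 4 falls. The block fit called 12 higher and 4 lower. socs3a lost its call without any of 5 arrays (adjusted p 0.0557 to 0.172), all but mutant replicate 1, and c9 without wild type replicates 1 or 2 or mutant replicates 2 or 3 (0.0592 to 0.188). c9, cfi and socs3a were chosen after their values were seen. Beside the rise of these immune genes, mpx was not called and lyz was lower on every mutant array, as given above. Whether the number of immune cells differed was not tested.

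Liver genes split. Of 55 measured, 8 rose and 5 fell, against 3.73% and 3.66% of all genes. Their median was 0.12, and the block fit called 13 higher and 7 lower (8.98% and 8.54% of all genes in that fit). The falls included some of amino acid and purine enzymes. The list's other amino acid enzymes, those of tyrosine breakdown among them, were not called, with changes of -0.15 to 0.27. uox, the urate oxidase of purine breakdown, went from 5.63, 5.93 and 5.68 to 3.77, 3.91 and 3.74, in the range of background (-1.94 ± 0.12, adjusted p = 3.4e-09). gnmt, glycine N-methyltransferase, is outside the list and went from 9.42, 8.95 and 9.33 to 7.67, 7.43 and 7.76, a fall of 3.06-fold (-1.61 ± 0.14, adjusted p = 2.8e-07). agxta, an aminotransferase, and hpda, an enzyme of tyrosine breakdown, fell by 0.59 and 0.53. fabp10a, the liver fatty acid binding protein often used as a hepatocyte marker, was dim on this array and fell from 4.65, 4.72 and 4.78 to 4.25, 4.13 and 4.26 (-0.50 ± 0.10, adjusted p = 0.0022).

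The liver genes that rose were mostly of secreted plasma proteins. apom, an apolipoprotein, went from 10.11, 9.44 and 10.21 to 10.72, 10.52 and 11.11, a rise of 1.83-fold (0.87 ± 0.17, adjusted p = 0.0031). kng1, a kininogen, rose 1.55-fold (0.63 ± 0.13), the copper carrier cp 1.43-fold (0.52 ± 0.12) and the antithrombin serpinc1 1.40-fold (0.48 ± 0.12). The transferrin gene tfa was 12.34 ± 0.20 in wild type and 12.22 ± 0.28 in mutants (SD, n = 3) and was not called (-0.12 ± 0.23, adjusted p = 0.939). nr0b2a, a nuclear receptor that represses bile acid synthesis in mammals, is in none of the lists and rose 2.72-fold from 7.34, 6.73 and 6.67 to 8.25, 8.32 and 8.51 (1.44 ± 0.16, adjusted p = 7.5e-06). A second nr0b2a probe set rose by 1.63. The list held 4 rises without wild type replicate 2 and 3 without mutant replicate 3. cp lost its call without wild type replicate 2 or mutant replicate 3 (adjusted p 0.0619 and 0.073), and serpinc1 without wild type or mutant replicate 3 (0.061 and 0.0923). hpda and serpinc1 were chosen after their values were seen.

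Of 25 measured pancreatic genes, 0 rose and 4 fell by limma, against 3.73% and 3.66% of all genes. An unadjusted p under 0.05 was found for 5, and the block fit called 0 rises. Changes were below zero for 20 of the 25 (median -0.07). ins, the insulin gene of β-cells, had signals of 7.39, 7.65 and 8.10 in wild type and 6.69, 6.72 and 6.76 in mutants. It fell 1.98-fold (-0.99 ± 0.16, adjusted p = 0.00043), and the groups did not overlap. prss1, a trypsin of exocrine cells, fell 1.87-fold from 6.52, 6.74 and 6.65 to 5.74, 5.73 and 5.73 (-0.91 ± 0.10, adjusted p = 7.5e-06). The list's other digestive enzymes of exocrine cells were not called, with changes of -0.27 to 0.18. gcga, a proglucagon gene of α-cells, fell by 0.45 ± 0.10 close to background. sst6.1, a somatostatin gene outside the list, went from 5.98, 6.21 and 6.15 to 4.63, 4.80 and 4.58 (-1.44 ± 0.13, adjusted p = 7.7e-07). The somatostatin genes within the list were not called (-0.22 and -0.01). The fourth fall in the list was of pax6b, an islet factor that brain and eye also express (1.33-fold, -0.41 ± 0.12). Its call was lost without wild type replicates 1 or 2 or mutant replicates 1 or 3 (0.0722 to 0.236).

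Among 43 glucocorticoid and circadian genes 1 rose and 4 fell, against 3.73% and 3.66% of all genes, with a median of 0.02. fkbp5 and klf9 are targets of the glucocorticoid receptor. Apart from genes of steroid metabolism, given below, the list's other glucocorticoid-responsive genes were not called, with changes of -0.33 to 0.33. fkbp5, a co-chaperone of that receptor, had signals of 7.61, 7.54 and 7.77 in wild type and 5.86, 5.66 and 5.62 in mutants. The fall was 3.80-fold (-1.92 ± 0.24, adjusted p = 2.4e-05). klf9, a Krüppel-like factor, went from 7.72, 8.23 and 7.74 to 6.17, 6.31 and 5.78, a fall of 3.51-fold (-1.81 ± 0.19, adjusted p = 2.4e-06). Both genes separated the genotypes without overlap.

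Of the list's genes of steroid metabolism, hsd11b2 and cyp17a1 fell and the others were not called. hsd11b2, which inactivates cortisol, went from 6.68, 6.85 and 6.46 to 5.46, 5.45 and 5.15, a fall of 2.49-fold (-1.31 ± 0.15, adjusted p = 1.1e-05). cyp17a1, a steroid hydroxylase of interrenal and gonadal hormone synthesis, fell 1.46-fold (-0.54 ± 0.12), a call lost without wild type replicate 1 (adjusted p = 0.0541). A dim second cyp17a1 probe set was not called. The rise was of ciarta, a light-responsive repressor of the circadian clock (1.47-fold, 0.56 ± 0.16), which lost its call without wild type replicate 3 or mutant replicates 1 or 3 (0.212, 0.122 and 0.128). The block fit called 3 higher and 4 lower.

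**Figure D3:**
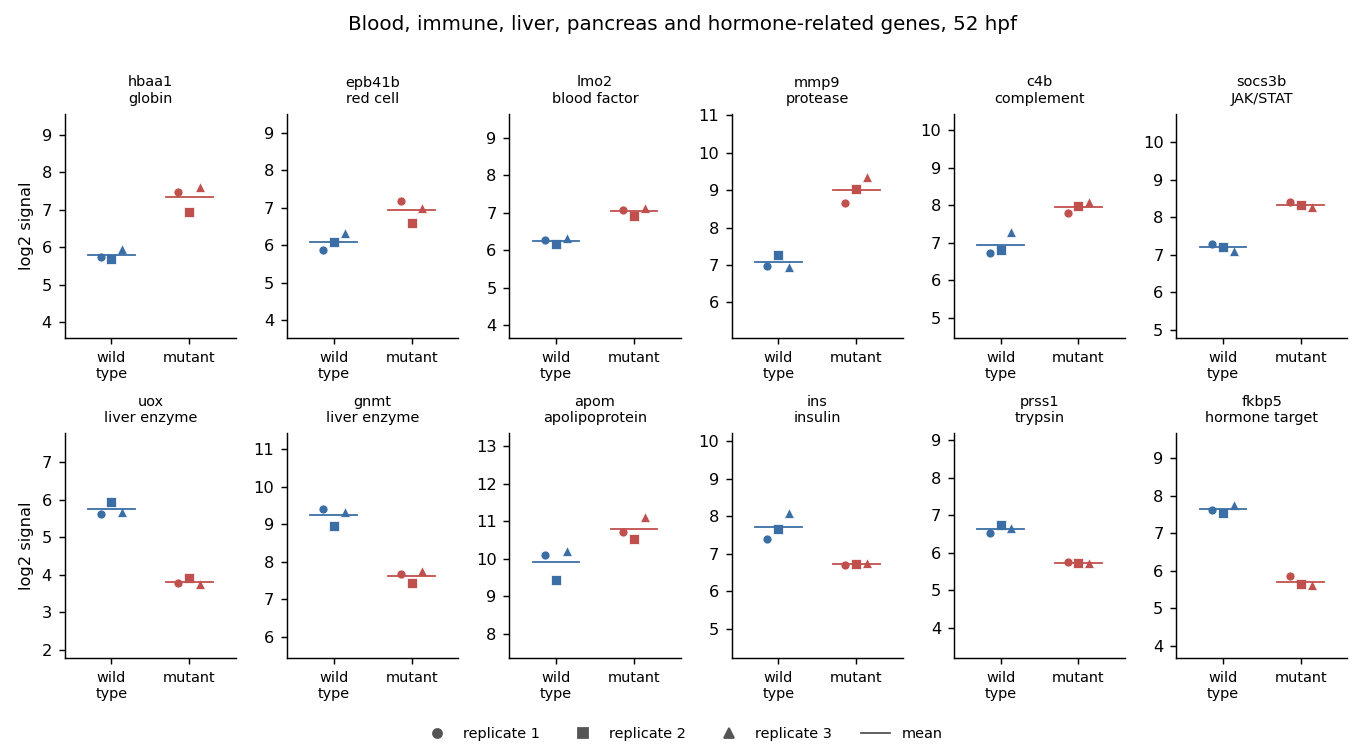
Log2 signal of 12 blood, immune, liver, pancreas and hormone-related genes on the 3 wild type (blue) and 3 mutant (red) whole embryo arrays, with the shape of a point giving the replicate number and a line the group mean. All panels cover the same length of log2 axis. The 7 blood, immune and apolipoprotein genes (hbaa1, epb41b, lmo2, mmp9, c4b, socs3b and apom) are higher on every mutant array, and uox, gnmt, ins, prss1 and fkbp5 are lower on every one.

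The share of genes called was 6.98% in the skeletal muscle list, 8.33% in heart, 5.56% in notochord and 5% in endothelium, near the 7.39% of all genes. Of 43 skeletal muscle genes 1 rose and 2 fell (median 0.01), and the mean log2 signal of the list was 9.91 to 10.13 on wild type and 9.92 to 10.13 on mutant arrays. The myosin light chain mylpfa changed by 0.31 ± 0.13 and the myosin heavy chain myhz1.3 by -0.22 ± 0.11, neither of which was called. pvalb3, a parvalbumin, which binds calcium and speeds the relaxation of fast fibres, went from 8.66, 8.60 and 8.78 to 10.22, 10.07 and 10.49, a rise of 2.99-fold (1.58 ± 0.14, adjusted p = 4.2e-07). acta1a, a skeletal actin, went from 12.74, 12.59 and 12.86 to 11.46, 11.72 and 11.96, a fall of 2.03-fold (-1.02 ± 0.17, adjusted p = 0.0005). atp2a1l, a calcium pump gene, fell 1.35-fold (-0.43 ± 0.12) and lost its call without any of the 6 arrays (0.054 to 0.196). Without wild type replicates 1 or 2 or any of the mutant replicates, 1 fall was left.

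mb, the oxygen-binding myoglobin of heart and other muscle, was in none of the lists and was chosen after its value was seen. It went from 8.84, 8.76 and 8.77 to 7.56, 7.73 and 7.64, a fall of 2.22-fold (-1.15 ± 0.12, adjusted p = 2.7e-06). Of 12 heart genes 1 rose and 0 fell by limma (2 had an unadjusted p under 0.05, and the block fit called 1 higher and 2 lower). The pair lower in the block fit were sarcomere genes. myh7, the ventricular myosin, was 8.64, 8.76 and 8.64 in wild type and 7.73, 7.44 and 7.70 in mutants (-1.06 ± 0.45, adjusted p = 0.218, and 7.2e-06 in the block fit). actc1a, a cardiac and skeletal actin, was 13.12, 13.05 and 13.31 against 12.35, 12.36 and 12.63 (-0.71 ± 0.38, adjusted p = 0.382, and 2.7e-05 in the block fit). For both, the embryo arrays did not overlap, and the fit of the 6 embryo arrays alone gave adjusted p of 0.0013 and 0.0122. The pan-cardiac light chain myl7 was not called (-0.14 ± 0.50, adjusted p = 0.975). gata5, a factor of heart, yolk layer and gut, was the gene that rose (1.64-fold, 0.71 ± 0.19), and it lost its call without wild type replicates 1 or 2 or mutant replicates 1 or 3 (0.0737 to 0.150), which left no call in this list.

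The notochord list had 1 rise and 0 falls among 18 genes (2 at an unadjusted p under 0.05, and 2 rises and 0 falls in the block fit). tbxta, the Brachyury factor of the notochord, rose 1.39-fold (0.47 ± 0.12) and lost its call without wild type replicate 3 or mutant replicates 1 or 3 (adjusted p 0.105, 0.0664 and 0.0607). Of 20 endothelial genes 1 rose and 0 fell, with 1 at an unadjusted p under 0.05 and 1 rise and 1 fall in the block fit. The endothelial receptor kdrl had a difference of 0.14 ± 0.16 (95% interval -0.19 to 0.48). klf2b, a factor of endothelium and of skin, rose 1.64-fold (0.71 ± 0.17) and lost its call without wild type replicates 1 or 2 or mutant replicate 2 (0.055, 0.061 and 0.0936).

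Of 66 brain and spinal cord neuron genes 2 rose and 15 fell, against background shares of 3.73% and 3.66%, with a median of -0.19, and 55 of the 66 had changes below zero. The other 49 were not called. The block fit called 27 lower and 2 higher, and without mutant replicate 2 the list held 9 falls. The mean log2 signal of the list was 8.43 to 8.46 on wild type and 8.15 to 8.21 on mutant arrays. Whole embryos include the retina, in which 46 of these genes were called lower in mutants (9.5% of all genes were), so the part of the fall that lies in brain and spinal cord was not measured.

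syt1a, a calcium sensor of synaptic vesicle release, went from 10.14, 10.24 and 10.30 to 9.38, 9.42 and 9.14, a fall of 1.88-fold (-0.91 ± 0.12, adjusted p = 5.3e-05). gap43, a protein of growing axons, went from 9.88, 9.79 and 10.11 to 9.03, 8.94 and 9.18, a fall of 1.84-fold (-0.88 ± 0.12). Both groups of arrays were separate for each gene. Among genes of inhibitory transmission, gad2, which makes GABA, fell 1.80-fold (-0.85 ± 0.12) and slc32a1, which loads it into vesicles, 1.77-fold (-0.83 ± 0.12), while a further GABA enzyme of the list and its GABA and glycine receptor subunits were not called. calb2b, a calcium buffer, fell 2.49-fold (-1.31 ± 0.14, adjusted p = 5.7e-06) and gng13b, a G protein subunit chosen after its value was seen, 2.51-fold (-1.33 ± 0.21). elavl3, an RNA-binding protein of nearly all new neurons, was 10.37 ± 0.28 in wild type and 10.07 ± 0.24 in mutants (SD, n = 3), with overlapping arrays and no call (-0.29 ± 0.16, adjusted p = 0.423). The 2 rises were of inaa, an intermediate filament gene at background signal in wild type (0.74 ± 0.13), and zic2a, a factor of the dorsal neural tube (1.31-fold, 0.39 ± 0.10), both chosen after their values were seen. zic2a lost its call without wild type replicates 1 or 2 or mutant replicate 3 (0.0517, 0.114 and 0.152), which left 1 rise.

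A further list held spinal motor, sensory and trigeminal genes, which are not confined to cells outside the eye. In retina 3 of them were called higher and 5 lower, against 10.1% and 9.5% of all genes. tph2, which makes serotonin in the raphe and pineal, went from 5.29, 5.54 and 5.36 to 4.75, 4.71 and 4.64 (-0.70 ± 0.09, adjusted p = 4.5e-05), while its change in retina was 0.11. prph, the peripherin filament of sensory and motor neurons, went from 7.45, 6.89 and 7.33 to 6.36, 6.38 and 6.58, a fall of 1.72-fold (-0.78 ± 0.13, adjusted p = 0.00066). Among the 19 measured genes of that list, 2 rose (neurog1 and runx3) and 2 fell (prph and tph2), against 3.73% and 3.66% of all genes. The block fit called 2 and 5. For prph, neurog1 and runx3 the embryo and retina changes were not called different.

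The Notch and proneural list held 50 measured genes, with 12 rises, 2 falls and a median of 0.08, against 3.73% and 3.66% of all genes. In retina 19 of the 50 were called higher and 5 lower (10.1% and 9.5% of all genes were). Whole embryos include the retina, so the part of the rise that lies outside the eye was not measured. ascl1a, a bHLH factor that starts neurogenesis, went from 8.66, 8.94 and 9.0 to 9.91, 10.14 and 10.41, a rise of 2.44-fold (1.29 ± 0.14, adjusted p = 6.8e-06). neurog1, its counterpart in sensory ganglia and spinal cord, went from 6.62, 6.45 and 7.11 to 7.47, 7.68 and 8.29, a rise of 2.12-fold (1.09 ± 0.24, adjusted p = 0.0063). hes6, a target of such factors, rose 2.42-fold (1.28 ± 0.19). The pools of the 2 genotypes did not overlap for any of these genes.

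Both sox11 genes, which encode SoxC factors that act in newly born neurons, rose, while a further SoxC gene of the list was not called. sox11b went from 9.04, 9.03 and 8.87 to 10.15, 10.03 and 10.13, a rise of 2.18-fold (1.12 ± 0.12, adjusted p = 6.2e-06), and sox11a went from 11.16, 11.27 and 11.06 to 11.99, 12.04 and 11.96, a rise of 1.78-fold (0.83 ± 0.11, adjusted p = 2.9e-05). The zinc finger factor myt1a rose 1.76-fold (0.81 ± 0.13). The Notch ligands jag1a and dlc rose 1.65-fold (0.72 ± 0.15) and 1.47-fold (0.55 ± 0.11), although further dlc probe sets were not called. The 2 falls were of neurod6a, a factor of differentiating neurons (1.49-fold, -0.57 ± 0.14), and heyl, a Notch target at background signal (-0.38 ± 0.11). Without mutant replicate 3, neurog1 had an adjusted p of 0.0501, which left 1 rise in the list of motor and sensory genes. neurod6a lost its call without wild type replicate 1 or mutant replicate 3 (0.0959 and 0.128) and heyl without any of the 6 arrays (0.0746 to 0.139), so that 0 or 1 fall was left in each case. dlc, heyl, jag1a and neurod6a were chosen after their values were seen.

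**Figure D4:**
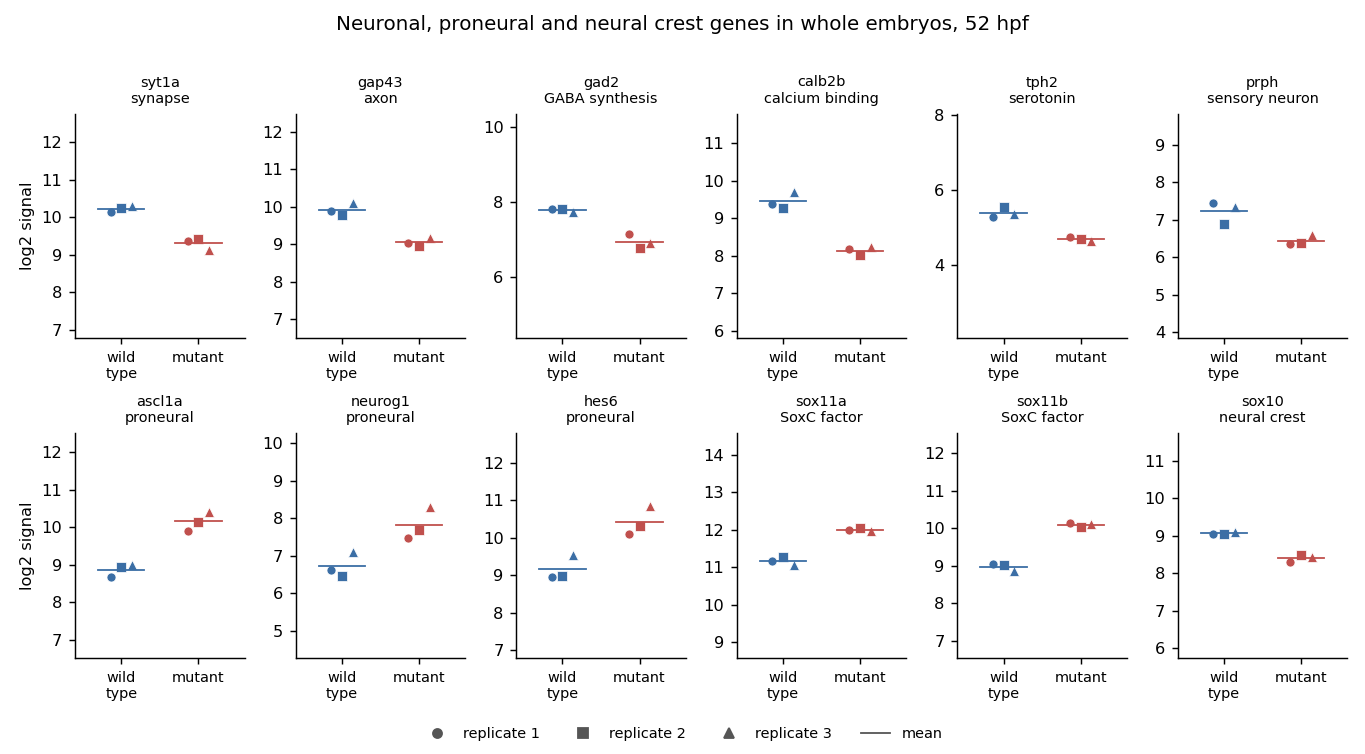
Log2 signal of 12 neuronal, proneural and neural crest genes on the 3 wild type (blue) and 3 mutant (red) whole embryo arrays, with the shape of a point giving the replicate number and a line the group mean. All panels cover the same length of log2 axis. The neuronal genes in the upper row and sox10 are lower on every mutant array, and ascl1a, neurog1, hes6, sox11a and sox11b are higher on every one.

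In the lists of pigment cell and neural crest genes and of glial and myelin genes, 17.4% and 22.7% were called, against 7.39% of all genes. Of 23 pigment cell and neural crest genes 1 rose and 3 fell, and the block fit called 2 and 5. sox10, which crest cells need to form pigment cells and glia, went from 9.05, 9.05 and 9.09 to 8.29, 8.48 and 8.43, a fall of 1.58-fold (-0.66 ± 0.12, adjusted p = 0.00111). tfap2a, an AP-2 factor of crest and skin, fell 1.33-fold (-0.42 ± 0.09), and slc2a11b, a transporter of yellow pigment cells, fell 1.79-fold (-0.84 ± 0.14, adjusted p = 0.00082). paics, a purine synthesis enzyme that pigment cells use, went from 12.11, 12.06 and 12.42 to 13.15, 13.04 and 13.21, a rise of 1.91-fold (0.94 ± 0.13, adjusted p = 0.00012). The other 19 were not called, with changes of -0.48 to 0.30. They include melanin synthesis enzymes (0.01 and -0.03), further genes of yellow pigment cells (0.04, 0.01 and -0.05) and further purine synthesis enzymes (0.09, 0.30 and 0.005). Of 22 glial and myelin genes 2 rose and 3 fell, and the fall of sox10 is counted in this list too. s100b rose by 1.00 ± 0.19 from background signal. The glutamate transporter slc1a2b fell 1.46-fold (-0.55 ± 0.13) and the connexin gja1b 1.42-fold (-0.51 ± 0.12). slc1a2b lost its call without wild type replicate 1 or mutant replicate 3 (0.0686 and 0.107) and gja1b without wild type replicate 2 or mutant replicate 3 (0.109 and 0.0986). Without mutant replicate 3 the glial list held 1 fall, and without wild type replicates 2 or 3 or mutant replicates 1 or 2 it held 1 rise. Whole embryos include the retina. The changes of tfap2a and slc1a2b lay further below zero in retina (retina minus embryo effect -0.83 and -0.97). For paics that difference was -1.31, and for slc2a11b it was 1.42. The part of these changes that lies outside the eye was not measured.

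The Hox clusters, which give the trunk its position along the body axis, showed no call. Of 42 measured genes 0 were called by limma, against 7.39% of all genes, so few calls would be expected in a list of this size. An unadjusted p under 0.05 was found for 6, and the block fit called 3 higher and 2 lower. Changes ranged from -0.42 to 0.42 with a median of -0.03. Without wild type replicate 1, 1 was higher and 1 was lower.

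General programmes were counted in the same way. Of 84 cell cycle genes 4 rose (4.76%, near the 3.73% of all genes) and 0 fell (15 at an unadjusted p under 0.05). Their median was 0.10, with 66 of the 84 changes above zero and 18 below, and the block fit called 14 higher and 2 lower. mybl1, a Myb factor of proliferating progenitors, went from 7.86, 7.92 and 7.56 to 9.62, 9.26 and 9.63, a rise of 3.30-fold (1.72 ± 0.12, adjusted p = 2.5e-08). The G1 cyclin ccnd1 rose 1.78-fold (0.83 ± 0.15), the phosphatase cdc25b 1.86-fold (0.90 ± 0.20) and mybl2b 1.48-fold (0.56 ± 0.16), the last of which lost its call without any of 5 arrays (0.0612 to 0.136), all but mutant replicate 1. In retina 61 of the 84 were called higher (10.1% of all genes were), and the whole embryo effect was called different from the retina effect for 12 of them, in each case lower in embryo. Since whole embryos include the retina, the part of these changes that lies outside the eye was not measured.

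The p53 and apoptosis list held 40 measured genes, with 4 rises and 1 fall, against 3.73% and 3.66% of all genes. The fall was lost without each of the 6 arrays. The block fit called 8 and 1. xrcc1, a scaffold of DNA strand break repair, went from 5.46, 4.80 and 4.78 to 6.53, 6.60 and 6.98 (1.69 ± 0.16, adjusted p = 8.1e-07), with wild type near background. btg2, an antiproliferative gene, rose 1.67-fold (0.74 ± 0.15) and the kinase plk3 1.50-fold (0.58 ± 0.12). The other 35, which include general targets of p53, were not called. The immediate early gene ier5l went from 9.89, 9.85 and 10.09 to 11.57, 11.46 and 11.66, a rise of 3.08-fold (1.62 ± 0.11, adjusted p = 5.9e-09), and the stress factor atf3 rose 1.94-fold (0.95 ± 0.16). Heat shock and immediate early genes numbered 57, with 3 rises and 5 falls (10 and 7 in the block fit, and 5 rises without mutant replicate 1). The rises of that list include btg2 and ier5l, and its falls include klf9. Of 52 amino acid stress and unfolded protein genes 4 rose and 1 fell (8 and 5 in the block fit). The fall was lost without wild type replicates 1 or 3 or mutant replicates 1 or 2.

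The remaining lists are given by their counts, to be read against 3.73% higher and 3.66% lower among all genes. Counts of the block fit are to be read against 8.98% higher and 8.54% lower. Of 62 carbohydrate, lipid and mitochondrial genes 0 rose and 4 fell by limma (12 at an unadjusted p under 0.05), and the block fit called 2 higher and 13 lower. Of 20 lateral line and ear genes 1 rose and 3 fell (1 and 5 in the block fit, and 3 rises without wild type replicate 3). Of 26 pituitary, hypothalamus and pineal genes 0 rose and 2 fell by limma, with 6 at an unadjusted p under 0.05 and 1 and 4 in the block fit, and 1 rise without wild type replicate 1 or mutant replicate 3. Of 33 genes of intestine, pronephros and swim bladder 1 rose and 1 fell (4 and 2 in the block fit), and leaving out single arrays gave 0 to 2 of each. Of 23 yolk and yolk syncytial layer genes 3 rose and 1 fell (5 and 2 in the block fit), and leaving out single arrays gave 0 or 1 rises and 0 to 2 falls. The 2 hatching gland genes measured had changes of 0.20 and 0.22 and were not called, with 0 at an unadjusted p under 0.05 and 0 in the block fit. As a comparison, 54 retina and lens genes had 2 rises and 9 falls in whole embryos (4 falls without mutant replicate 3, and 4 and 11 in the block fit). The falls included those of rlbp1a, which binds retinoids in the visual cycle (2.19-fold, -1.13 ± 0.10), the ganglion cell factor irx4a (2.04-fold, -1.03 ± 0.12) and the photoreceptor gene rcvrn2 (2.02-fold, -1.01 ± 0.17).

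In dissected retina 1723 of the 8793 genes were called (19.6%). The genotype effect in retina minus that in embryo was called for 635 genes (7.22%), above zero for 246 (2.8%) and below zero for 389 (4.42%). By probe set this was 1067 calls (6.88%), 374 above zero (2.41%) and 693 below (4.47%). Of the 322 genes that fell in embryos, the effect differed for 150, and 156 also fell in retina. Of the 328 that rose, it differed for 78, and 161 also rose in retina. Signals in wild type retina were in the range of background for 93 of the 328 and 88 of the 322. The embryo and retina comparisons share no arrays, but the embryo pools contain the eye. The test of their difference uses the embryo arrays again, so choosing genes by their embryo calls favours a called difference.

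Some of the skin, matrix and liver genes that fell in embryos had retina changes near zero, and others did not: anxa1a changed by -0.77 in embryo and -0.83 in retina, a difference that was not called. The retina effect minus the embryo effect was 3.73 ± 0.32 for anxa1b (interaction adjusted p = 2.8e-07), 2.58 ± 0.22 for aebp1b and 1.94 ± 0.17 for uox, while the retina changes themselves were 0.02, 0.11 and 0.00. In retina anxa1b (4.95 in wild type, 4.98 in mutants) and aebp1b (4.17 and 4.29) had signals in the range of background. A fall there could hardly show, so their called differences restate the embryo fall. mmp9 (-1.83 ± 0.22), pvalb3 (-1.69 ± 0.20) and nr0b2a (-1.49 ± 0.23) had embryo rises and retina changes of 0.10, -0.11 and -0.04. fkbp5 and klf9 fell in embryos, and their retina changes of -0.69 and -0.24 were not called (1.23 ± 0.34 and 1.57 ± 0.26). sox11a rose in embryos and changed by -0.37 in retina (-1.20 ± 0.15, interaction adjusted p = 2.3e-05), whereas sox11b changed by 1.12 in embryo and 1.3 in retina, a difference that was not called (0.18 ± 0.18).

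For other genes the retina change was the larger of the pair. The retina effect minus the embryo effect was -2.91 ± 0.20 for calb2b, -2.15 ± 0.17 for syt1a, -1.45 ± 0.23 for elavl3 and -1.17 ± 0.16 for gap43. crabp1a, a retinoic acid binding protein, fell 3.35-fold in embryos from 7.03, 7.48 and 7.40 to 5.38, 5.81 and 5.49 (-1.74 ± 0.15), and lingo1b, a neuronal membrane protein, fell 2.93-fold from 7.01, 7.25 and 7.37 to 5.70, 5.64 and 5.63 (-1.55 ± 0.11), and both fell further in retina. smarca4a (0.17 ± 0.22), mybl1 (0.02 ± 0.18), xrcc1 (0.23 ± 0.22) and ier5l (-0.05 ± 0.15) had embryo and retina changes whose difference was not called. slc37a4b, a glucose-6-phosphate transporter gene, rose 3.11-fold in embryos from 7.59, 7.21 and 7.48 to 8.83, 9.16 and 9.19 (1.64 ± 0.13, adjusted p = 1.2e-07) and less in retina (-0.83 ± 0.19).

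**Figure D5:**
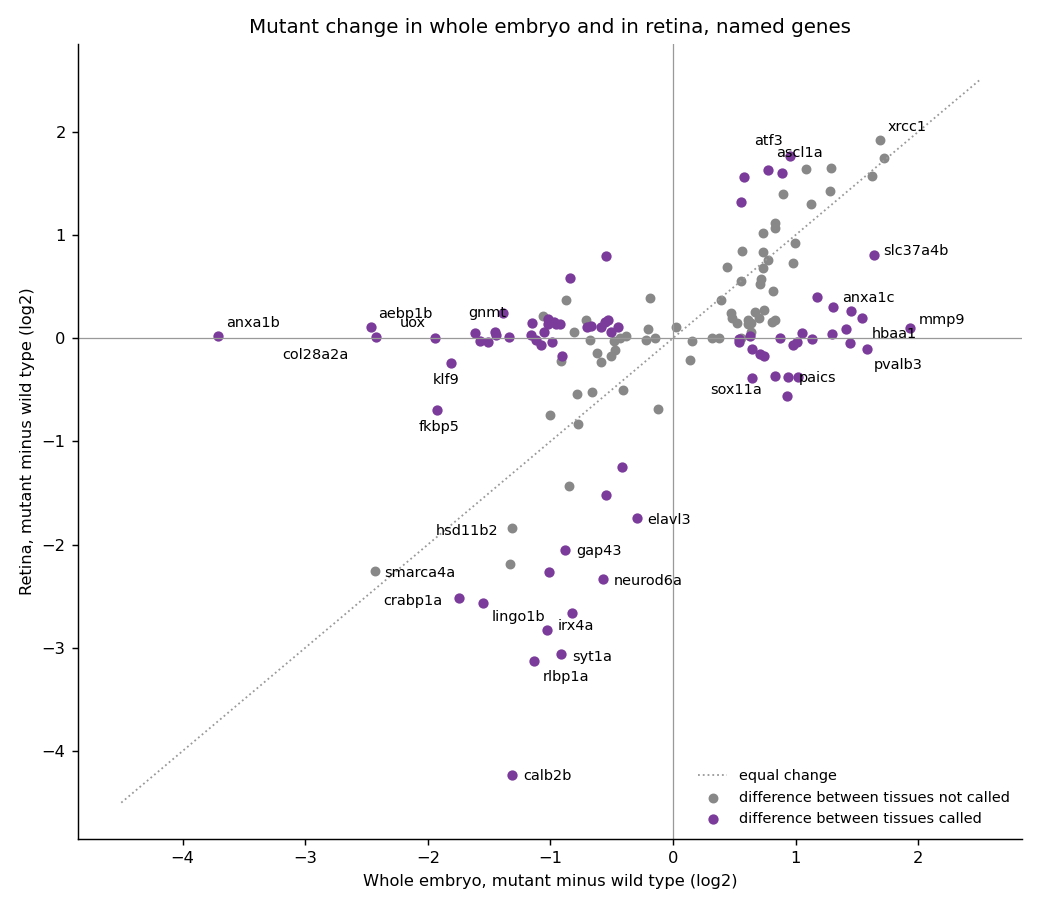
Change in mutants in whole embryo (horizontal) and in retina (vertical), both as log2 mutant minus wild type, for the 146 genes named in the text, each point a gene. Purple points are the 78 genes whose embryo and retina changes were called different, grey points the 68 others, and the dotted line marks equal change. Skin, matrix and liver genes such as anxa1b, aebp1b and uox lie along the horizontal axis, and neuronal genes such as calb2b and syt1a lie far below the dotted line. Retina signals of anxa1b and aebp1b were in the range of background, where a fall could hardly show.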

How the data were processed

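The authors' deposited table holds log2 signals on one scale for 18 Affymetrix zebrafish arrays. Per the labels' protocols, total RNA from pools was labelled with the two-cycle kit, and per the series design text the authors background-adjusted, normalized and summarized the probes with RMA. The submitters' processing notes name RMA, affy and R 2.2.0. The annotation or chip definition behind the summaries and scan dates are not given in the sources used here, and the raw scans were not used here. RMA shares one normalization across arrays, so a shift of most genes in one direction would be removed.

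From these values, 115 control probe sets of 15617 were left out. Of the 15502 tested, 10795 had 1 gene symbol in the platform annotation, 135 several and 4572 none. Genes were named only from probe sets with 1 symbol, with symbols checked through the RefSeq gene table of assembly GRCz12tu, which was used for names and for the order of genes on chromosomes. limma 3.58.1 (R 4.3.3) fitted 6 group means over all 18 arrays with empirical Bayes moderation, tested mutant against wild type in whole embryo and the retina effect minus the embryo effect, and adjusted p-values by Benjamini-Hochberg over all probe sets. The code was tested on simulated data. The plots come from matplotlib 3.10.9 in Python 3.11.15. Arrays have no read depth, and the 3 arrays per group limit the precision.

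The 32 gene lists hold 1844 entries, of which 1133 were measured, and some genes stand in several lists. The compared groups and the lists were chosen with earlier results of these data known. Lists are described by counts and medians beside all genes, with no set test. Named genes were smarca4a, the 20 largest called changes each way without overlap between arrays, up to 6 members per list with the smallest p, and the first 4 measured members of each list. Genes chosen otherwise are marked in the text. For 27 called genes of the text with further probe sets, 14 of the 34 further probe sets were called the same way, 0 the other way, and 10 of those not called were dim.

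Replicate numbers are not stated to pair pools. The deviations of same-numbered arrays from their group means correlated across probe sets at 0.53, 0.60 and 0.60 between the genotypes, and those of different numbers at -0.42 to -0.21. Since every pair was over 0.1, a fit with the number as a block was added, and it is given where it changes a call. The main fit, which gives the calls, standard errors and p-values of the text, has no term for the number. It called fewer genes than the block fit, which differs in 2 ways: it adds the number and leaves out the arrays of retina with pigment epithelium. The same 12 arrays without a block gave 1148 called probe sets, against 1044 in the main fit and 2525 with the block. The other alternatives were the 0.001 threshold of the series design, a minimum of 2-fold, fewer arrays in the fit, a filter on low signals, 1 probe set per gene, renewed scaling, trended and robust moderation, array weights and leaving out each embryo array.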

Additional observations from a re-analysis of the deposited data

Results flagged for a closer look

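Of the 146 genes named, 78 are given here because their mutant change was called different between retina and whole embryo by limma's test of the difference of genotype effects, 39 with a retina effect above the embryo effect and 39 below. Each value is the retina change minus the embryo change on the log2 scale. Many of the named genes were chosen by their embryo changes, which enter this difference too, so called differences are favoured among them. Some, such as anxa1b, aebp1b, and1, and2 and and3, had retina signals in the range of background in both genotypes. A fall in retina could hardly show for these. Groups of 3 arrays were not examined for single outlying arrays.

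Among genes of skin and covering epithelia the difference was 3.73 for anxa1b, 1.47 for caspb, 1.11 for krt91, 1.13 for ca2, 1.09 for aqp3a, 0.71 for agr2, -1.0 for anxa1c and -0.58 for evpla. anxa1c and evpla rose in embryos, and the others fell. For fin fold and matrix genes it was 2.58 for aebp1b, 2.43 for col28a2a, 1.62 for and2, 1.54 for aspn, 1.52 for dcn, 1.36 for col10a1a, 1.2 for and1, 1.19 for and3, 1.06 for col6a3, 0.79 for col5a2a, -1.32 for fn1b and -1.01 for timp2b. All but fn1b and timp2b fell in embryos. Blood, immune and vessel genes had differences of 1.09 for cfd, 1.01 for cisha, -1.35 for hbaa1, -0.75 for urod, -1.83 for mmp9, -1.04 for ctss2.1, -0.91 for slc7a7, -0.54 for ncf1, -1.49 for cfi, -1.40 for socs3a, -1.14 for socs3b, -1.04 for c4b, -1.04 for c6.2, -0.78 for irf1b and -0.87 for klf2b. cfd and cisha fell in embryos and the others rose.

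For liver, pancreas and hormone-related genes the values were 1.94 for uox, 1.66 for gnmt, 0.71 for hpda, 0.69 for agxta, 0.56 for fabp10a, 1.47 for sst6.1, 0.95 for ins, 0.73 for prss1, 0.56 for gcga, 1.57 for klf9, 1.34 for cyp17a1, 1.23 for fkbp5, -1.49 for nr0b2a, -0.86 for apom and -0.61 for kng1. Muscle and pigment or crest genes gave 1.29 for mb, 1.15 for acta1a, 1.42 for slc2a11b, -1.69 for pvalb3, -1.31 for paics and -0.83 for tfap2a. Neuronal and neurogenic genes gave -2.91 for calb2b, -2.15 for syt1a, -1.84 for slc32a1, -1.76 for neurod6a, -1.45 for elavl3, -1.2 for sox11a, -1.17 for gap43, -1.01 for lingo1b, -0.97 for slc1a2b, -0.77 for crabp1a, 0.81 for tph2 and 0.76 for dlc. For retinal markers measured in whole embryos the values were -2.0 for rlbp1a, -1.80 for irx4a and -1.25 for rcvrn2. Stress, growth and transport genes had values of 0.98 for plk3, 0.86 for myclb, 0.82 for atf3, 0.70 for igfbp1a, -1.26 for slc39a5, -1.19 for slc43a2b and -0.83 for slc37a4b.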

How the results depend on the processing

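The 1044 probe sets called in whole embryos, 526 higher and 518 lower, were 260 (114 and 146) at the 0.001 threshold and 148 (54 and 94) with at least 2-fold. With the replicate block over the 6 embryo arrays they were 2942 (1544 and 1398), and with the replicate block over 12 arrays 2525 (1318 and 1207), all 1044 among them in both. With 1 probe set per gene, which tests fewer features, 676 were called (345 and 331). The 1067 probe sets whose effect differed between retina and embryo became 378, 478, 2314 with the block over 12 arrays and 651 in the same order. The block over 6 arrays holds no retina and gives no such difference. Under the 7 further settings that use every embryo array, the embryo count lay within 1.5 times, from 763 for the embryo arrays alone to 1320 with array weights, and renewed scaling moved the median of all genes by less than 0.01. Leaving out single arrays gave 733 to 863 in all, 365 to 439 higher, 368 to 424 lower, and 915 to 986 for the difference. Of 133 called genes in the text, 100 stayed called without each embryo array in turn. 3 genes that were not called changed sign: krt4 ranged from -0.0085 without mutant replicate 3 to 0.26, mpx from -0.0208 without wild type replicate 1 to 0.0825 without wild type replicate 3, and tfa from -0.24 to 0.0408 without mutant replicate 2. Of the genes not called, actc1a, lyz and myh7 were called with the block over 12 arrays, and these and elavl3 and mylpfa with that over 6. Over the same 12 arrays without a block, actc1a and myh7 were called too. The causes were not tested. Dim genes and the 3 pools per group limit what could be called, and a pool average cannot show differences between embryos.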

Other observations

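Genes of the growth hormone and insulin-like growth factor axis were looked at after their values were seen. ghrb, a growth hormone receptor, had signals of 7.03, 7.26 and 6.70 in wild type and 7.72, 8.08 and 7.67 in mutants, a rise of 1.78-fold (0.83 ± 0.14, limma adjusted p = 0.00047). igfbp1a, which binds insulin-like growth factors and in zebrafish is raised by fasting and hypoxia, went from 8.79, 8.51 and 8.55 to 9.40, 9.55 and 9.58, a rise of 1.86-fold (0.89 ± 0.13, adjusted p = 0.0002), although a further igfbp1a probe set was not called. Both genes separated the genotypes without overlap. cisha, the STAT5-induced inhibitor that fell, stands beside them, and the pituitary hormone gene gh1 was dim and not called (-0.20 ± 0.10, adjusted p = 0.293).

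Among Myc factors, which drive growth and ribosome production, mycn rose 1.66-fold from 8.17, 7.99 and 8.54 to 8.80, 8.87 and 9.22 (0.73 ± 0.14), and myclb rose 1.71-fold from 8.21, 8.38 and 8.12 to 9.05, 8.95 and 9.03 (0.77 ± 0.10). Neither gene overlapped between the genotypes, and both were chosen after their values were seen. The other Myc genes measured in the lists were not called, with changes of -0.09 to 0.24. Among the 20 largest rises were also a pair of transporters. slc43a2b, a carrier of neutral amino acids, went from 5.81, 5.92 and 6.30 to 7.47, 7.35 and 7.56, a rise of 2.73-fold (1.45 ± 0.14, adjusted p = 1.1e-06). slc39a5, a zinc importer, went from 5.42, 4.90 and 5.29 to 6.57, 6.28 and 6.66 (1.3 ± 0.15, adjusted p = 8.9e-06).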
